A study of Mus musculus with 6 samples.

Results

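Matricellular proteins are secreted into the extracellular matrix, where they regulate how cells meet that matrix rather than building its fibres. The 10 genes described here encode osteonectin (*Sparc*) and its relatives hevin (*Sparcl1*) and *Smoc1*, periostin (*Postn*), the thrombospondins *Thbs1*, *Thbs2*, *Thbs3* and *Thbs4*, tenascin-C (*Tnc*) and tenascin-W (*Tnn*). They were taken by symbol as members of these protein families, and all 10 were found by exact match among the 44556 genes of the count tables. All 10 also had enough reads to be among the 15600 genes tested.

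As background, osteonectin is one of the most abundant non-collagenous proteins of bone and binds both collagen and calcium. Periostin marks the periosteum and sutures and assists the cross-linking of collagen. Thrombospondin-1 and thrombospondin-2 form trimers, whereas thrombospondin-3, thrombospondin-4 and the cartilage protein COMP form pentamers. Tenascin-C is found at sites of bone formation and tissue repair, and tenascin-W in periosteum and osteogenic tissue.

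Bulk RNA-seq was carried out on polyA RNA from the parietal bone of newborn C57BL/6 mice, with 3 libraries from OsxCre mice and 3 from OsxCre;Stat3fl/fl littermates. Both groups carry the Osx-driven Cre transgene, which acts in osteoblast precursors, and only the second carries loxP sites around some of the exons of both *Stat3* alleles. Cells of the bone outside that lineage therefore keep *Stat3*, and in bulk tissue fewer cells of a type and less RNA per cell cannot be told apart. The comparison asks how loss of *Stat3* in the osteoblast lineage bears on gene expression in the newborn skull. The libraries held between 8193651 and 12080044 counts on genes, and each of the 3 libraries labelled OsxCre;Stat3fl/fl held fewer than each OsxCre library. Values are given as CPM, the count of a gene per 1000000 counts of the TMM-scaled library, unless another scale is named.

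*Stat3* had 150, 135 and 141 CPM in the OsxCre libraries and 153, 155 and 155 CPM in those labelled OsxCre;Stat3fl/fl. The targeted gene was thus not lower at the level of the whole gene (log2 fold change 0.12, edgeR adjusted p = 0.442), and reads of the deleted exons were not told apart, so genotypes are given as labelled.

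Of the 10 matricellular genes, 1 passed an adjusted p of 0.05 in edgeR's quasi-likelihood test. This was *Thbs4*, which rose 1.55-fold in the libraries labelled OsxCre;Stat3fl/fl. Across all 15600 genes tested, 1.26% passed, with 0.776% higher and 0.481% lower. Before adjustment, 5 of the 10 genes had p under 0.05, *Thbs4*, *Thbs1*, *Tnc*, *Sparcl1* and *Postn*, beside 16.4% of all genes tested. The same 5 had values that did not overlap between genotypes, with *Tnc* lower and the other 4 higher, beside 23% of all genes tested. Among the 1852 genes with a mean of at least 100 CPM, as all of these genes but *Smoc1* have, 2.21% passed the adjusted p, 21.6% the unadjusted p, and 29.3% had values that did not overlap. The median log2 fold change of the 10 was 0.25 and that of all genes tested -0.0037.

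**Figure D1:**
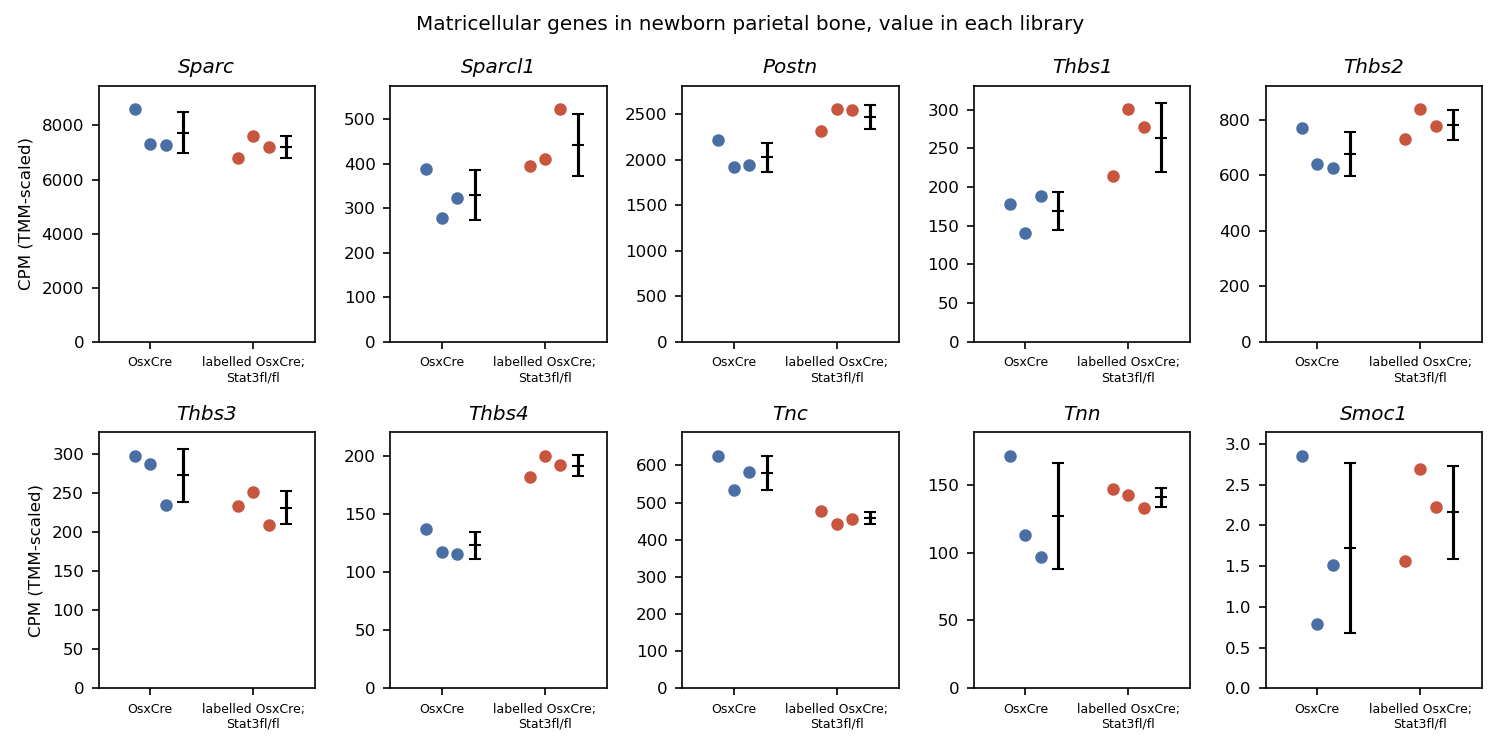
CPM after TMM scaling (vertical axes from 0) of each of the 10 genes in the 3 OsxCre libraries (blue) and the 3 libraries labelled OsxCre;Stat3fl/fl (red), one point per library, with the mean and SD in black beside them. *Thbs4*, *Thbs1*, *Sparcl1* and *Postn* lie higher and *Tnc* lower in every library labelled OsxCre;Stat3fl/fl.

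The sequence upstream of the start site is shown for *Thbs4*, the gene that passed the test, and for *Tnc*, the gene of the set with the smallest p on the lower side. Both are the 250 bases before the annotated start in RefSeq's GRCm38.p6 assembly, read on the strand of the gene, and capitals mark the letters TATAAA. The *Thbs4* stretch lies at chr13:92794819-92795068 on the minus strand and the *Tnc* stretch at chr4:64047016-64047265 on the minus strand.
Thbs4: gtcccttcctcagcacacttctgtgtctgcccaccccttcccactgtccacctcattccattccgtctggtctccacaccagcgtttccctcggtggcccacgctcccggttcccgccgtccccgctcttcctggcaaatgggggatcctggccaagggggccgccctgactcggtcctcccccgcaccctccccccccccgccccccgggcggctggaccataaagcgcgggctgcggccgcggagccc
Tnc: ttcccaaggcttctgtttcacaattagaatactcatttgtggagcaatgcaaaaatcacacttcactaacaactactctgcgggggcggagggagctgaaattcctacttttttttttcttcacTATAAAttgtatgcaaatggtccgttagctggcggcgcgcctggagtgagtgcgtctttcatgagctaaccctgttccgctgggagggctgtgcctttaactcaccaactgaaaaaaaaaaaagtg
The *Thbs4* stretch was 70.8% G and C and that of *Tnc* 44.8%. The *Tnc* stretch holds TATAAA beginning at position -126 from the start, and the *Thbs4* stretch holds none. A start further downstream is also annotated for *Tnc*, and the same letters lie at position -205 from that one. The letters TTCNNNGAA, the core to which STAT proteins bind, were searched on both strands from 250 bases before to 50 after each start. None of the 9 windows held for *Sparc*, *Postn*, *Thbs2*, *Thbs3*, *Thbs4*, *Tnc* and *Tnn* contains them, beside 8.30% of 32851 windows of that length in RefSeq. The letters TGANTCA, bound by AP-1 proteins and searched on both strands, were likewise in none of the 9, beside 7.81% of all windows. At these shares 9 windows are too few to tell absence from that background, and sequence outside the windows was not searched. TATAAA, also searched on both strands, was in 4 of the 9, beside 13.6% of all windows. These are the windows of *Tnc* (both starts, which share 1 site) and *Postn* (1 of its 2 starts) on the strand of the gene, and that of *Thbs2* on the opposite strand. None of these 3 motifs contains another. *Sparcl1*, *Thbs1* and *Smoc1* were not searched.

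*Thbs4*, on chromosome 13 from 92751586 to 92794818 (GRCm38.p6, as for all positions here), encodes a thrombospondin of tendon, muscle and cartilage matrix. It had 137, 117 and 116 CPM in the OsxCre libraries and 182, 200 and 192 CPM in those labelled OsxCre;Stat3fl/fl. The lowest value of the second group was well above the highest of the first. The means were 123 ± 11.7 and 192 ± 9.08 CPM (SD, n = 3 each), which is 0.64 on the log2 scale (SE 0.09, edgeR adjusted p = 0.0213). Leaving out 1 library at a time kept the adjusted p under 0.05 only without OsxCre replicate 1. It was 0.0927 and 0.0640 without OsxCre replicates 2 and 3, and 0.0565, 0.0608 and 0.107 without replicates 1, 2 and 3 labelled OsxCre;Stat3fl/fl, while the log2 fold change stayed between 0.59 and 0.72. Over all 14 alternative settings the adjusted p lay between 7.27e-07 and 0.122, and the log2 fold change was positive in each.

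*Thbs3*, on chromosome 3 from 89215180 to 89226841, is the other pentamer-forming thrombospondin among the 10, and it did not pass the test. Its values were 298, 287 and 234 CPM in OsxCre and 233, 251 and 209 CPM in the libraries labelled OsxCre;Stat3fl/fl, which overlap. The log2 fold change was -0.24, with a 95% interval from -0.51 to 0.03 (adjusted p = 0.348, edgeR). The count of *Thbs4* relative to that of *Thbs3*, a ratio that needs no library scaling, was 0.460, 0.409 and 0.495 in OsxCre and 0.782, 0.797 and 0.921 in the libraries labelled OsxCre;Stat3fl/fl. Each of the latter 3 was above each of the former. This ratio, and the ratios of counts given for other pairs, were chosen after the values were seen and were not tested.

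*Thbs1*, on chromosome 2 from 118111876 to 118127133, encodes thrombospondin-1, an inhibitor of vessel growth and an activator of latent TGF-beta that platelets also store. It had 178, 141 and 188 CPM in OsxCre and 214, 300 and 277 CPM in the libraries labelled OsxCre;Stat3fl/fl. All 3 of the latter were higher, though the spread within that group was wide. The means were 169 ± 25.1 and 264 ± 44.6 CPM (SD, n = 3 each). The log2 fold change of 0.64 was as large as that of *Thbs4*, but its standard error was 0.15 and its adjusted p 0.0998 in edgeR's test, so it did not pass. Its 95% interval ran from 0.29 to 1.00. DESeq2's Wald test gave *Thbs1* an adjusted p of 0.00165 and the edgeR test without a filter on low counts 0.0231, within a range of 0.00165 to 0.276 over the 14 alternatives.

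*Thbs2*, on chromosome 17 from 14665500 to 14694262, encodes the second trimer-forming thrombospondin, which binds collagen fibrils and matrix proteases. It had 768, 638 and 625 CPM in OsxCre and 729, 837 and 777 CPM in the libraries labelled OsxCre;Stat3fl/fl, where OsxCre replicate 1 overlaps the second group. The log2 fold change was 0.21 (95% interval -0.05 to 0.46, adjusted p = 0.407, edgeR). *Thbs1* counts relative to *Thbs2* counts were 0.232, 0.220 and 0.301 in OsxCre and 0.294, 0.359 and 0.356 in the other group, and these ranges overlap.

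Markers of other cell types that can make thrombospondins were read in the same libraries. The summed level of 8 skeletal muscle markers was 21812 to 23737 CPM in OsxCre and 24493 to 36058 CPM in the libraries labelled OsxCre;Stat3fl/fl, without overlap, and none of the 8 was at or under 3 counts in all libraries. Of these, *Myh3*, an embryonic myosin heavy chain, was called higher (log2 fold change 1.72, adjusted p = 0.0204) and *Myh4*, a fast adult form, lower (-3.61, adjusted p = 3.87e-05, both from edgeR), and 7 of the 8 had a positive fold change. *Acta1*, *Ckm* and *Tnnt3*, the most abundant, had log2 fold changes of 0.30, 0.58 and 0.50 and did not pass, although the values of *Ckm* and *Tnnt3* lay wholly higher. In this list 5 of the 8 had an unadjusted p under 0.05, DESeq2 called 5 and limma-voom 2. Over all genes tested the shares were 16.4%, 3.45% and 1.15%, and edgeR called 1.26%. The summed level of 6 megakaryocyte and platelet markers was 96.0 to 109 CPM against 119 to 129 CPM, without overlap. Most of that sum was *Pf4*, named after its values were seen, at means of 77.9 CPM in OsxCre and 97.5 CPM in the other group. Of the 6, 2 lay wholly higher and 0 wholly lower, beside 23% of all genes tested without overlap, and 2 had a negative fold change. The 5 tendon and fibroblast markers summed to 548 to 652 against 558 to 675 CPM, with overlap. The part of any of these in the thrombospondin values was not tested.

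*Tnc*, on chromosome 4 from 63959785 to 64047015, encodes tenascin-C, a hexameric protein that weakens cell adhesion to fibronectin. It was the only one of the 10 whose values lay wholly lower in the libraries labelled OsxCre;Stat3fl/fl, at 626, 534 and 581 CPM in OsxCre against 476, 442 and 456 CPM. The means were 580 ± 46.0 and 458 ± 16.9 CPM (SD, n = 3 each), and the difference of -0.34 on the log2 scale (SE 0.09, edgeR adjusted p = 0.127) did not pass. Its 95% interval ran from -0.55 to -0.13. In DESeq2's Wald test the adjusted p was 0.0134, and over the 14 alternatives it lay between 0.0134 and 0.326. Splice forms of *Tnc*, which differ in the number of fibronectin type III repeats, are not separated in counts per gene.

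*Tnn*, on chromosome 1 from 160085029 to 160153692, had 171, 113 and 96.9 CPM in OsxCre and 147, 143 and 133 CPM in the libraries labelled OsxCre;Stat3fl/fl. Those of the second group all lay inside the range of the first, whose upper end was OsxCre replicate 1 and whose lower end was replicate 3. The log2 fold change was 0.15 (95% interval -0.30 to 0.59, adjusted p = 0.764, edgeR). It was 0.43 without OsxCre replicate 1 and -0.02 without OsxCre replicate 3, so its direction depends on 1 library. *Tnc* counts were 3.65, 4.74 and 6.00 times *Tnn* counts in OsxCre and 3.24, 3.10 and 3.43 times in the libraries labelled OsxCre;Stat3fl/fl, lower in each.

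*Sparc*, on chromosome 11 from 55394159 to 55420080, was by far the most counted of the 10, with more counts than 99.9% of the genes tested. It had 8600, 7315 and 7285 CPM in OsxCre and 6783, 7594 and 7203 CPM in the libraries labelled OsxCre;Stat3fl/fl, and the genotypes overlapped. Its log2 fold change was -0.10, with a 95% interval from -0.39 to 0.18 (adjusted p = 0.733, edgeR). *Sparc* alone made up 64.2%, 64.5% and 64.0% of the counts of the 10 genes in OsxCre, and 59.1%, 59.6% and 58.5% in the other group. That share was lower in every library labelled OsxCre;Stat3fl/fl, whereas the 10 genes together took 1.12% to 1.36% of all counts in OsxCre and 1.17% to 1.23% in the other group, with overlap.

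*Sparcl1*, on chromosome 5 from 104079108 to 104114088, encodes hevin, which shares the collagen-binding domain of osteonectin and is also made by endothelium and astrocytes. It had 389, 277 and 322 CPM in OsxCre and 396, 410 and 523 CPM in the libraries labelled OsxCre;Stat3fl/fl. The groups did not overlap, but the gap between OsxCre replicate 1 and replicate 1 of the second group was small, and with library totals in place of TMM scaling the groups overlapped. The log2 fold change was 0.43 (95% interval 0.07 to 0.78, adjusted p = 0.222, edgeR) and did not pass. *Sparcl1* counts were 0.0452, 0.0379 and 0.0443 of *Sparc* counts in OsxCre and 0.0584, 0.0540 and 0.0726 in the other group, higher in each. The summed level of 5 endothelial markers was 463 to 654 CPM in OsxCre and 565 to 668 CPM in the other group. Neural and glial markers, 6 in all, summed to 124 to 298 CPM and 56.3 to 236 CPM and varied widely within each genotype. The part of either in *Sparcl1* was not tested.

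*Smoc1*, on chromosome 12 from 81026808 to 81186414, encodes a BMP-binding member of the osteonectin family. It was barely detected, with 30, 8 and 18 counts in OsxCre and 13, 22 and 19 in the libraries labelled OsxCre;Stat3fl/fl. That is 0.793 to 2.85 CPM, where 3 counts in a library correspond to 0.252 to 0.368 CPM. The log2 fold change of 0.32 had a 95% interval from -0.74 to 1.39 (adjusted p = 0.788, edgeR). The coefficient of variation of its CPM was 60.9% in OsxCre and 26.4% in the other group, so neither a difference nor its absence was shown.

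*Postn*, on chromosome 3 from 54359267 to 54391041, encodes periostin and was second to *Sparc* in counts. It had 2215, 1927 and 1940 CPM in OsxCre and 2320, 2558 and 2547 CPM in the libraries labelled OsxCre;Stat3fl/fl, without overlap. The means were 2027 ± 163 and 2475 ± 134 CPM (SD, n = 3 each), a log2 fold change of 0.29 (95% interval 0.04 to 0.53, adjusted p = 0.236, edgeR), which did not pass. Splice forms of *Postn* are not separated here either.

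**Figure D2:**
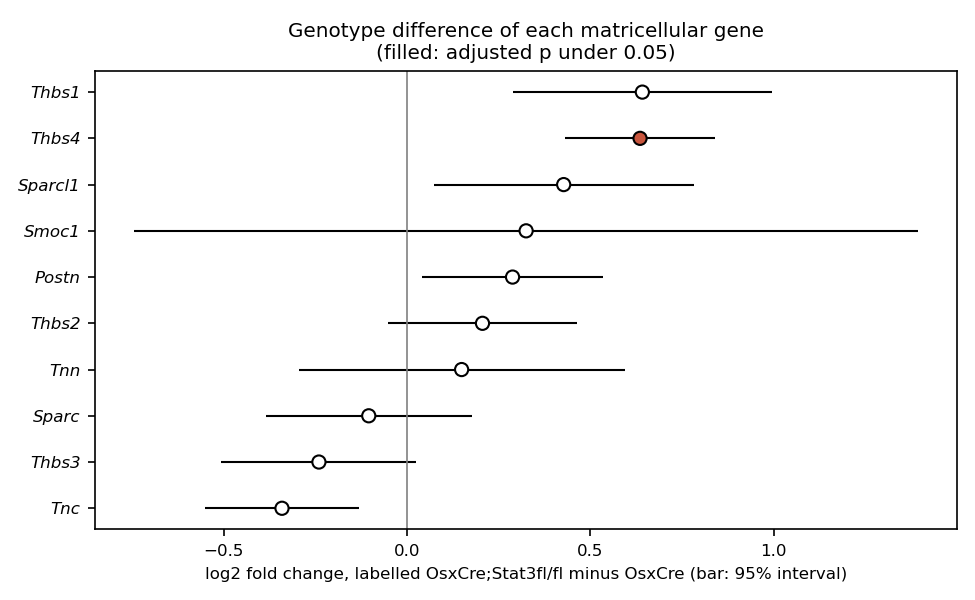
Log2 fold change (horizontal axis, libraries labelled OsxCre;Stat3fl/fl minus OsxCre) of each of the 10 genes from edgeR, with its 95% interval as a bar and the circle filled where the adjusted p is under 0.05. The intervals of *Thbs1*, *Thbs4*, *Sparcl1* and *Postn* lie above 0 and that of *Tnc* below, and only *Thbs4*, at 0.64, passed the adjusted p.

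Levels can be compared between genes only per length, so CPM was divided by the annotated exon length of each gene, from 3114 bases for *Sparcl1* to 7838 for *Postn*. In OsxCre libraries the order by CPM per kb was *Sparc* (2297 ± 223, SD, n = 3), *Postn* (259 ± 20.8), *Thbs2* (114 ± 13.3), *Sparcl1* (106 ± 18.0), *Tnc* (77.3 ± 6.13), *Thbs3* (56.6 ± 7.01), *Thbs4* (37.5 ± 3.56), *Thbs1* (27.8 ± 4.13), *Tnn* (21.8 ± 6.74) and *Smoc1* (0.492 ± 0.299). In that order *Thbs2* and *Sparcl1* overlapped in their values per kb, as did *Thbs1* and *Tnn*, and the other neighbours did not. The annotation behind the counts is not given in the sources used here, so these lengths are approximate.

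In the libraries labelled OsxCre;Stat3fl/fl, the levels per kb were 2136 ± 120 for *Sparc*, 316 ± 17.2 for *Postn*, 142 ± 22.3 for *Sparcl1* and 132 ± 9.11 for *Thbs2* (SD, n = 3). *Tnc* at 61.0 ± 2.25 and *Thbs4* at 58.2 ± 2.76 CPM per kb overlapped there, whereas in OsxCre every *Tnc* value was above every *Thbs4* value. *Thbs4* also stood above *Thbs3* (47.9 ± 4.41) in that group and below it in OsxCre, in every library. *Thbs1* was at 43.4 ± 7.35, overlapping *Thbs3*, *Tnn* at 24.2 ± 1.22 and *Smoc1* at 0.618 ± 0.163 CPM per kb.

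**Figure D3:**
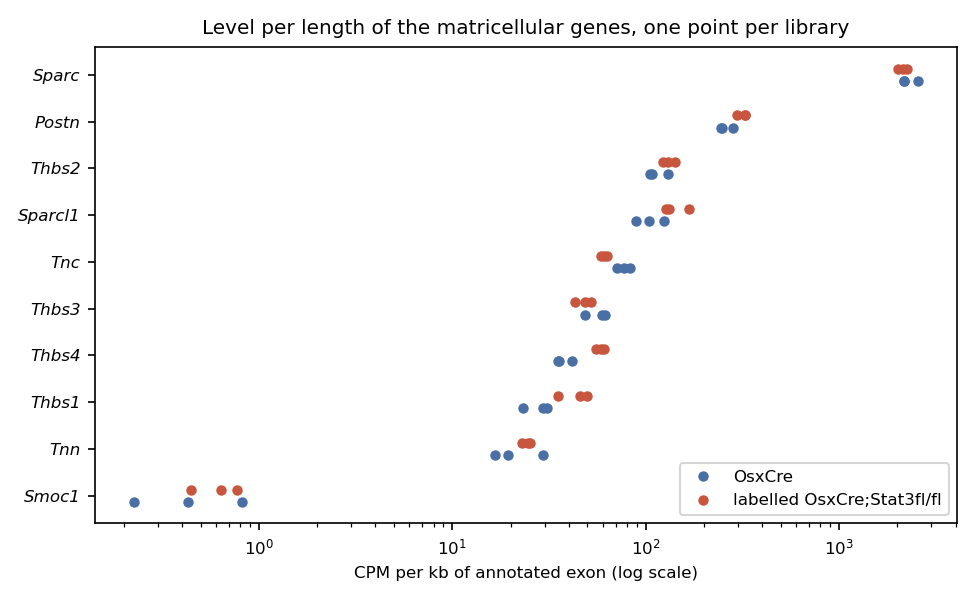
CPM per kb of annotated exon (horizontal axis, log scale) of the 10 genes, one point per library, OsxCre in blue and libraries labelled OsxCre;Stat3fl/fl in red, ordered by the OsxCre mean. *Sparc* stands highest, at a mean of 2297 CPM per kb in OsxCre, and *Smoc1* lowest, at 0.492, and the *Thbs4* points cross from below to above those of *Thbs3*.

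After the genotype mean was taken from each log2 CPM, 42 of the 45 pairs of genes had a positive correlation over the 6 libraries, from -0.227 to 0.997. That is 93.3% of pairs, with a median r of 0.62, beside 58.9% of pairs and a median of 0.15 among the 1852 genes with a mean of at least 100 CPM. *Smoc1* lies below that level and outside the comparison set, and its pairs, all positive, ran from 0.163 to 0.881. *Sparc*, *Thbs2* and *Thbs4* were the most alike, with r of 0.997 for *Sparc* with *Thbs2*, 0.997 for *Sparc* with *Thbs4* and 0.995 for *Thbs2* with *Thbs4*. All 3 negative pairs held *Thbs1* or *Thbs3*, with r of -0.227 for *Thbs1* with *Thbs3*, -0.211 for *Sparcl1* with *Thbs3* and -0.012 for *Thbs1* with *Tnn*. For *Tnc* r ran from 0.003 with *Thbs3* to 0.666 with *Smoc1*. These values share 6 libraries and their scaling and are a description only.

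Among 10367 genes with a mean of at least 10 CPM, those whose log2 CPM was most like that of *Thbs4* over the 6 libraries were *Tsc22d3* (Pearson r 0.998), a glucocorticoid-induced leucine zipper gene, the cytokine gene *Il33* (0.997) and the sulfotransferase gene *Sult1a1* (0.996). *Tsc22d3* had 133, 117 and 111 CPM in OsxCre and 192, 214 and 205 CPM in the libraries labelled OsxCre;Stat3fl/fl. *Sult1a1* had 40.5, 28.2 and 30.5 CPM against 77.5, 91.7 and 92.4 CPM. *Il33* had 14.8, 13.3 and 13.3 CPM against 17.4, 18.9 and 17.8 CPM. *Tsc22d3* rose 1.69-fold and *Sult1a1* 2.64-fold (adjusted p of 0.0142 and 0.00902, edgeR), and the 1.31-fold difference of *Il33* did not pass (adjusted p = 0.151, edgeR). These r values rest on 6 libraries and include the difference between genotypes. The genes were picked by them, so their own fold changes and p-values partly restate that choice and are a description only.

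Other matricellular genes were read from a list of 16, of which 14 were tested, 1 was called higher and 0 lower by edgeR. At an unadjusted p under 0.05 there were 5, and DESeq2 and limma-voom each called 2. Among all genes tested, edgeR called 1.26%, DESeq2 3.45% and limma-voom 1.15%, and 16.4% had an unadjusted p under 0.05. *Ctgf* (CCN2), a target of YAP and TGF-beta signalling, rose from 117, 105 and 160 CPM in OsxCre to 244, 267 and 249 CPM, a rise of 0.99 on the log2 scale (SE 0.15, edgeR adjusted p = 0.0285). Its relative *Cyr61* (CCN1), named here after its values were seen, had 46.7, 46.3 and 84.2 CPM against 148, 194 and 122 CPM and did not pass (log2 fold change 1.39, adjusted p = 0.0564, edgeR). The most abundant genes of the list did not pass either. *Spp1* (osteopontin), *Fstl1* and *Tnxb* had log2 fold changes of 0.10, 0.14 and 0.15 (adjusted p from 0.586 to 0.870, edgeR). The other 3 with an unadjusted p under 0.05, named after their values were seen, were *Wisp2* (CCN5) at a log2 fold change of -0.89, *Spock2* at 1.32 and *Smoc2* at 0.41 (adjusted p of 0.153, 0.159 and 0.215, edgeR). The value of *Spock2* rests on few reads, at a mean of 23.2 counts per library. The median of the 14 was 0.15, beside -0.0037 for all genes tested.

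Receptors of these proteins were read from a list of 17, and edgeR called 0, while 6 had an unadjusted p under 0.05, DESeq2 called 1 and limma-voom 0. The shares of all genes tested were 1.26% for edgeR, 3.45% for DESeq2 and 1.15% for limma-voom. The median of the receptors was 0.13 on the log2 scale. *Itgb1*, the common integrin beta subunit, *Lrp1*, an endocytic receptor, and *Cd36*, a thrombospondin receptor, were the most abundant, with log2 fold changes of 0.12, 0.03 and -0.22 (adjusted p from 0.576 to 0.893, edgeR). The 6 with an unadjusted p under 0.05, named after their values were seen, stand beside 16.4% of all genes tested, and 5 of the 6 had a positive fold change. *Itgav*, *Itga8* and *Itgb3*, integrin subunits, had log2 fold changes of 1.00, 0.47 and 0.31, *Egfr*, a growth factor receptor, 0.31, and *Sdc4*, a heparan sulfate proteoglycan, 0.25 (adjusted p from 0.153 to 0.229, edgeR). The value of *Itgav* rests on few reads, at a mean of 34.3 counts per library. Values did not overlap between genotypes for 5 receptors on the higher side and 1 on the lower, of 17, beside 23% of all genes tested. The lower one was *Cacna2d1*, a calcium channel subunit that binds thrombospondins, at 124, 127 and 156 CPM against 88.0, 112 and 95.7 CPM (log2 fold change -0.46, adjusted p = 0.127, edgeR).

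Matrix partners were 8 genes for collagens, fibronectin and proteins that process them, with a median log2 fold change of -0.0146. They had 0 calls in edgeR and limma-voom, 2 in DESeq2 and 3 at an unadjusted p under 0.05. Of all genes tested, edgeR called 1.26%, limma-voom 1.15% and DESeq2 3.45%, and 16.4% had an unadjusted p under 0.05. *Col1a2*, *Col1a1* and *Col3a1* had log2 fold changes of -0.18, -0.14 and 0.16 (adjusted p from 0.621 to 0.750, edgeR). The 3 with an unadjusted p under 0.05, named after their values were seen, were *Serpinh1*, a collagen chaperone, *Bmp1*, a procollagen proteinase, and *Lox*, a collagen cross-linking oxidase, at log2 fold changes of -0.50, -0.33 and 0.33 (adjusted p of 0.0877, 0.167 and 0.224, edgeR). Of the 7 genes for TGF-beta ligands and latency proteins, 6 were tested, and 0 were called by edgeR, DESeq2 or limma-voom or had an unadjusted p under 0.05. Their median was -0.07, and *Ltbp3*, *Ltbp4* and *Tgfb3*, the most abundant, had log2 fold changes of -0.13, -0.09 and -0.06 (adjusted p from 0.474 to 0.745, edgeR).

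**Figure D4:**
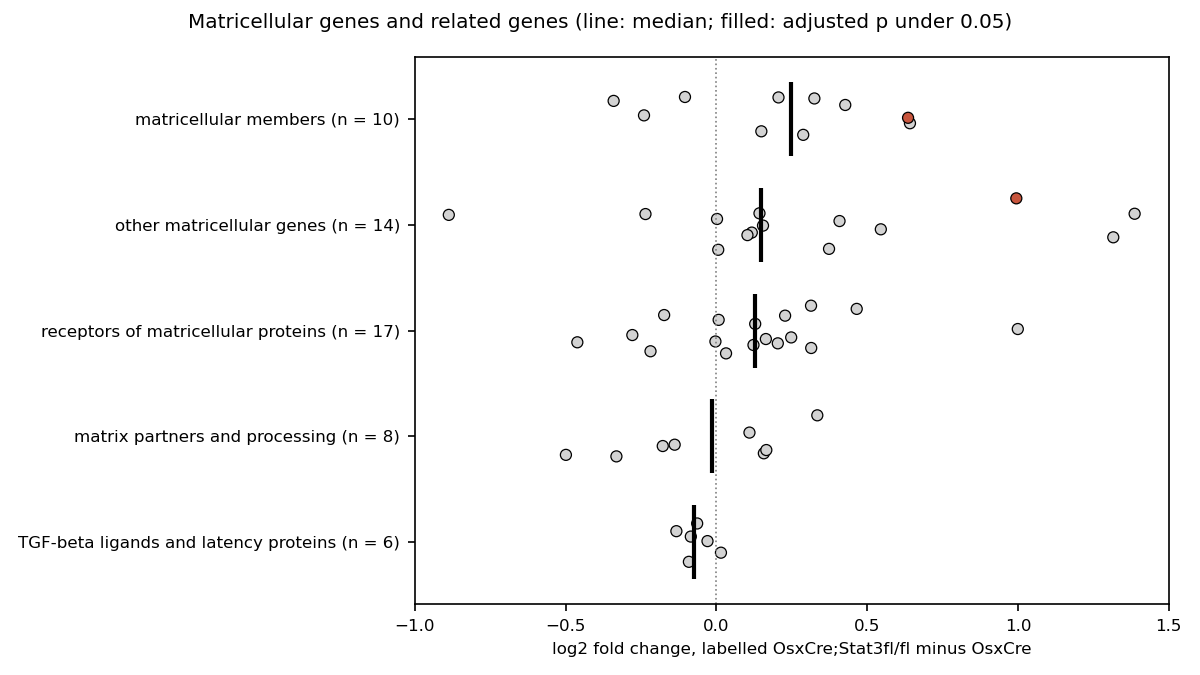
Log2 fold change (horizontal axis, libraries labelled OsxCre;Stat3fl/fl minus OsxCre) of every tested gene in 5 lists, one point per gene, with the median as a black line and points filled red where the adjusted p is under 0.05. The filled points are *Thbs4* at 0.64 and *Ctgf* at 0.99, and the medians lie between -0.07 and 0.25.

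Of 9 osteoblast markers edgeR called 1, *Ibsp* (bone sialoprotein), which fell by 0.66 on the log2 scale (adjusted p = 0.0213), and 7 of the 9 had a negative fold change, with a median of -0.19. *Alpl* and *Col1a1* had log2 fold changes of -0.54 and -0.14 and did not pass, although the values of *Alpl* lay wholly lower. In this list 2 had an unadjusted p under 0.05, DESeq2 called 2 and limma-voom 1. The shares of all genes tested were 16.4%, 3.45% and 1.15%, and 1.26% for edgeR. These shares stand beside the other marker lists too. None of the 9 was at or under 3 counts in all libraries. The markers summed to 12601 to 16883 CPM in OsxCre and 11012 to 14065 CPM in the other group, with overlap. Most of that sum was *Col1a1*, at means of 13055 and 11859 CPM. Of the 9, 2 lay wholly lower and 0 wholly higher, beside 23% of all genes tested without overlap. Cartilage markers, 5 in all, summed to 1793 to 3069 and 2743 to 3486 CPM, 6 suture and mesenchyme markers to 387 to 411 and 395 to 423 CPM, and 5 mural cell markers to 603 to 766 and 656 to 745 CPM. Macrophage markers, 4 in all, summed to 94.1 to 111 CPM in OsxCre and 113 to 120 CPM in the other group, without overlap. Most of that sum was *Cd68*, named after its values were seen, at means of 55.4 and 65.6 CPM. It was the only 1 of the 4 whose values did not overlap, and 1 of the 4 had a negative fold change. In the suture and mesenchyme list edgeR and limma-voom called 0 genes, DESeq2 1, and 3 had an unadjusted p under 0.05. In the tendon, cartilage, endothelial, mural cell, platelet, macrophage and neural lists edgeR, DESeq2 and limma-voom called 0. There the unadjusted p was under 0.05 for 2 mural cell and 2 platelet markers, for 1 marker each of cartilage, endothelium and macrophages, and for 0 tendon and 0 neural markers. The part of these cell types in the values of the 10 genes was not tested.

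The direction of each gene's fold change was the same under each of the 3 other scalings of library size. Directions turned only for *Tnn* and *Smoc1*, each when 1 OsxCre library was left out.

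**Figure D5:**
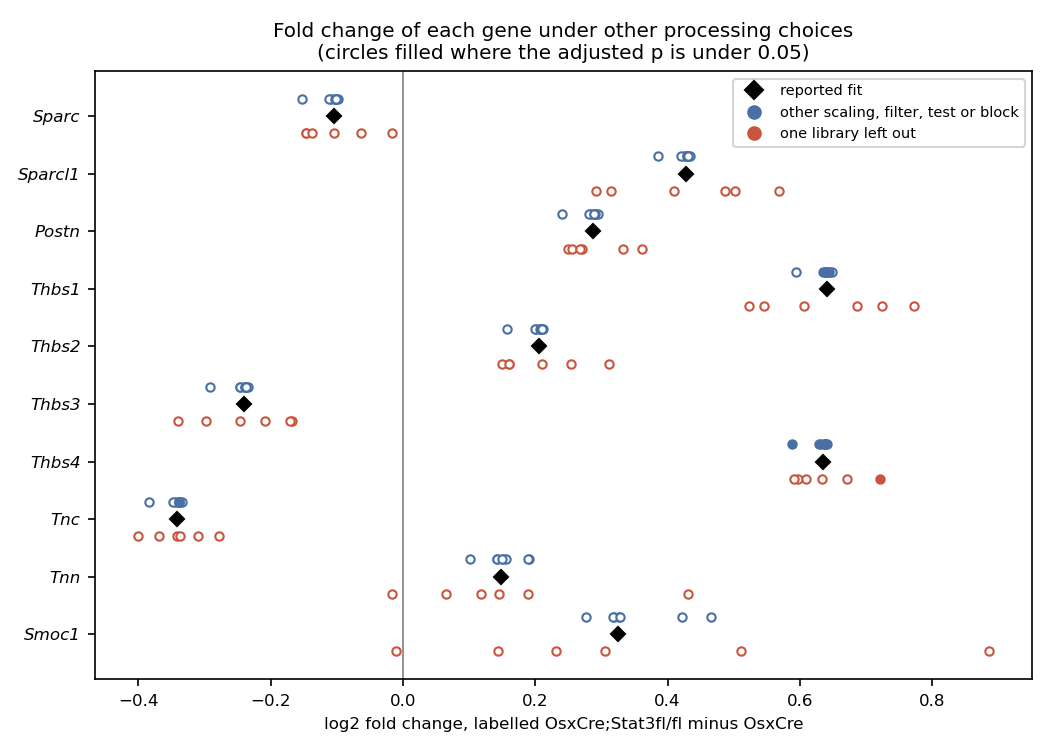
Log2 fold change (horizontal axis) of the 10 genes in the reported fit (black diamonds), under other scalings, filters, tests or the replicate block (blue) and with 1 library left out (red), with circles filled where the adjusted p is under 0.05. *Thbs4* stays between 0.59 and 0.72, and *Tnn* and *Smoc1* each cross 0 once.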

How the data were processed

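Parietal bone RNA was sequenced from 3 mice per genotype, taken as separate animals from the study's methods. The authors deposited raw counts per gene symbol for each library, without normalization. The submitters' processing notes name HISAT2 and GRCm38, the paper's methods name TopHat and mm9, and the program that made the counts is not given in the sources used here. Members and gene lists were chosen with earlier results of these data known.

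Low genes were removed by filterByExpr (at least 10 counts, total of at least 15), and the rest were scaled by TMM and compared with the quasi-likelihood test of edgeR 4.0.16 in R 4.3.3, two-sided, with Benjamini-Hochberg adjustment over 15600 genes. Standard errors were the log2 fold change divided by the square root of F. Alternatives used limma 3.58.1, DESeq2 1.42.0, other scalings and filters, the replicate block, and leaving out each library. Exon lengths came from GENCODE M1, positions and upstream sequence from RefSeq GRCm38.p6 (7 of 10 genes matched for sequence). Named beside the 10 genes and Stat3 were called genes and the 3 most abundant of each related list, and for Thbs4 the 3 most correlated genes. Other genes, said in the text to be named after their values were seen, fall outside this rule. In the tissue lists that gave 0 calls only Pf4 and Cd68 are named singly. The fits were tested on simulated data. Libraries of a genotype were no duplicates (chi-square of at least 8.24 per degree of freedom). Floors of 3 counts cover counting error only.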

Additional observations from a re-analysis of the deposited data

How the results depend on the processing

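A stricter filter (mean count of at least 50) left 9 of the 10 tested, without *Smoc1*. With it, the 3 other scalings or limma-voom, the count called among the 10 was also 1, beside 1.15% to 1.45% of all genes. It was 2 without a filter on low counts (*Thbs4* and *Thbs1*, beside 428 of 28016 genes or 1.53%), 3 with DESeq2's Wald test (*Thbs4*, *Thbs1* and *Tnc*, beside 538 of 15600 genes or 3.45%), and 0 with the replicate block, where 5 of the 10 had an unadjusted p under 0.05 (beside 13.3% of all genes), the adjusted p of *Thbs4* was 0.122 and 1 of 15600 genes was called in all. With 1 library left out it lay between 0 and 1, with 3 to 7 of the 10 at an unadjusted p under 0.05 (beside 12.6% to 16.1% of all genes) and 12 to 103 genes called in all. The number of genes without overlap between genotypes was 5 in the reported fit, beside 23% of all genes, 4 with library totals, beside 23.6% (without *Sparcl1*), and between 5 and 8 with 1 library left out, beside 30.7% to 35.8%, where fewer values make separation easier. The 8 came without OsxCre replicate 1, beside 31.1%. The fold change turned to -0.011 for *Smoc1* without OsxCre replicate 2 and to -0.0159 for *Tnn* without OsxCre replicate 3, and for no other gene in these alternatives. Over the fits with 1 library left out, *Smoc1* ranged from -0.011 to 0.8865 and *Tnn* from -0.0159 to 0.4312. In the same fits *Sparc* ranged from -0.1469 to -0.0162 and *Thbs2* from 0.15 to 0.311. The values -0.0162 and 0.311 came without OsxCre replicate 1. Same-numbered libraries did not deviate together (r of -0.101, -0.518 and -0.085 across genes), so the numbers were not taken as pairs. The cause of these shifts was not tested. *Smoc1* had the least depth, at a mean of 18.3 counts, and spread widely between libraries.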
